A study of Mus musculus with 6 samples.

Results

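The anterior genes of the HoxB and HoxD clusters, Hoxb2, Hoxb3, Hoxb4, Hoxb5, Hoxb6, Hoxb7, Hoxd3, Hoxd4 and Hoxd8, were examined by RNA sequencing in the colon of mice exposed for a long time to PFOA (perfluorooctanoic acid, a fluorinated surfactant that persists in the body) and in control colon. The 9 genes were chosen by symbol, as the members of paralogue groups 2 to 8 of both clusters that the deposited count table names, out of 1790 gene symbols in 2033 rows. They occupy 5 rows, because the table merges Hoxb3, Hoxb4, Hoxb5 and Hoxb6 with the microRNA gene Mir10a in 1 row and Hoxd3 and Hoxd4 with the predicted gene Gm28230 in another. The groups were PFOA colon and control colon, with 3 libraries each. The labels name 6 mice per group whose colon was frozen, without saying which mice entered which library, so the p-values rest on how far libraries differ, which may be technical. They give no strain, age, sex, dose or length of exposure and no part of the colon, and PFOA cannot be told apart from a different sampling site along the colon.

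Hox genes encode transcription factors that bind DNA through a homeodomain and that give cells along the head-to-tail axis their position. Within a cluster the genes stand in the order in which they are expressed along the axis, with low paralogue groups towards the head and high groups towards the tail. In the gut the cells of neighbouring segments keep different sets of Hox genes, and the highest groups mark the hindgut.

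The shared part of the 9 genes is the homeobox, the coding stretch of the homeodomain, whose likeness bears on how well reads of the genes can be told apart. It was compared in GENCODE M21 transcripts. Over the whole homeobox of 180 bases, Hoxb3 and Hoxd3, which share paralogue group 3, were the closest pair, with 92.8% identical bases and a longest identical run of 47 bases. The neighbours Hoxb6 and Hoxb7 followed with 88.9%, and Hoxb4 and Hoxd4 of group 4 had 80.6%. Hoxd3 and Hoxd8, which lie in neighbouring rows of 1 cluster, were the least alike, at 58.3%. Hoxb7 and Hoxd8 had no stretch of 50 bases in common with a transcript of any gene outside their own row, on either strand. Of the 50-base stretches of Hoxb3 and Hoxb2, 51.4% and 25.9% were also found in the antisense gene Hoxb3os, which runs over both on the other strand. Hoxb4, Hoxb5 and Hoxb6 had 0.44%, 1.83% and 0.84% of their stretches elsewhere. For Hoxd3 and Hoxd4 the shares were 7.22% and 10.03%, all with the antisense gene Hoxd3os1. Strand use in counting is not given in the sources used here, so reads from the shared stretches cannot be assigned to the Hox gene or to its antisense partner.

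The merged rows also span the pair of miR-10 genes, whose mature sequences are shown because Mir10a (chr11:96317186-96317208) is named in the HoxB row and Mir10b (chr2:74726074-74726096) lies inside the HoxD row, both on the plus strand. Sequences are from RefSeq (GRCm38.p6), 5′ to 3′, with the seed, bases 2 to 8, in capitals.
mmu-miR-10a-5p: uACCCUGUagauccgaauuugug
mmu-miR-10b-5p: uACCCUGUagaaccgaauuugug

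Both share the seed and differ by the substitution U12A from miR-10a to miR-10b, counted from the 5′ end. The counts are reads of the host rows and do not measure the mature microRNAs.

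All 5 rows were higher in PFOA colon. The median log2 fold change of the 5 rows was 3.73, from 1.53 for Hoxb2 to 4.81 for Hoxb7, against a median of 1.71 over the 804 tested rows that were higher in PFOA and -0.03 over all 1608 tested rows. Each of the 5 passed edgeR's quasi-likelihood test with Benjamini-Hochberg adjustment over all tested rows (adjusted p from 0.000105 to 0.00371). The deposited table, however, lists only rows that differ between these groups: by mean raw counts, none had a log2 ratio between -1.08 and 0.92. The median of -0.03 over all tested rows therefore falls between the higher and the lower rows and is typical of neither. The percentage of all tested rows that passed was 100, and 50 percent passed in each direction, so that passing says nothing particular about the Hox rows. Likewise the lowest PFOA library lay above the highest control library in 5 of 5 Hox rows and in 48.6 percent of all rows. The listed counts summed to between 1771120 and 2269892 per library, which is not the sequencing depth. Values below are raw counts, or CPM, here counts per 1e6 listed counts after scaling with edgeR's TMM factors. Those factors were computed from the listed rows, none of which is unchanged between the groups.

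**Figure D1:**
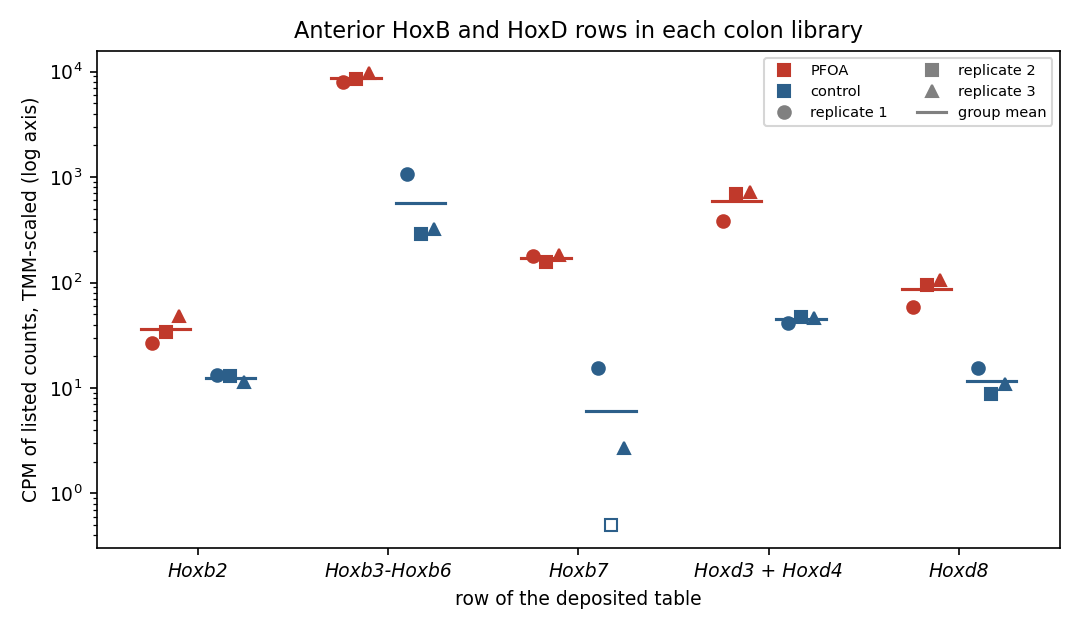
TMM-scaled CPM of the listed counts (log axis) for the 5 rows of anterior HoxB and HoxD genes in each library, with PFOA in red and control in blue, symbols for replicates and lines for group means (n = 3 each); the open square stands for a count of 0 in control replicate 2, drawn at 0.5. All PFOA points lie above all control points of the same row, and control replicate 1 stands above the other controls for Hoxb3 to Hoxb6 and for Hoxb7.

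The row of Hoxb3 to Hoxb6 (chr11:96292476-96347930, plus strand, mm10) was by far the most abundant. Its genes include Hoxb4, known for expanding blood stem cells, and Hoxb5, which acts in the neural crest cells that form the gut's nervous system. It had 15000, 17946 and 20619 counts in PFOA replicates 1, 2 and 3, against 2200, 601 and 711 counts in control replicates 1, 2 and 3. The PFOA libraries lay close together, with the highest 1.20 times the lowest in CPM, whereas control replicate 1 was 3.69 times control replicate 2. In CPM the row averaged 8702 ± 820 in PFOA and 561.9 ± 442.5 in control (SD, n = 3 each). This was 15.7-fold by summed and scaled counts, a log2 fold change of 3.95 ± 0.56 (SE; edgeR adjusted p = 0.000707), or 4.70 without control replicate 1. Even against control replicate 1, the lowest PFOA library was 7.50 times higher. Among the 804 tested rows higher in PFOA, 88 had a larger log2 fold change. The deposited length of this row, 55015 bases, covers 99.2% of its span, while the merged GENCODE exons of its genes cover 11677 bases. Of its 22 transcripts 12 are assembled ones without a reference identifier, so that reads from between the annotated exons count too, and the 4 Hox genes cannot be separated. The spans of 3 antisense genes, Gm11536, Hoxb3os and Hoxb5os, overlap 25104 bases of the row. As strand use is not given, their part in its counts is unknown.

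Hoxb7 (chr11:96285531-96290162, plus strand), whose promoter is widely used to drive genes in the ureteric bud, had the largest fold change of the 5 rows. It had 331, 332 and 391 counts in PFOA replicates 1, 2 and 3, against 32, 0 and 6 counts in control replicates 1, 2 and 3. The PFOA counts were nearly level and 32 of the 38 control counts came from replicate 1. In CPM the means were 172.0 ± 13.9 in PFOA and 6.11 ± 8.33 in control (SD, n = 3 each), 28.6-fold by summed and scaled counts. The log2 fold change was 4.81 ± 0.96 (SE; edgeR adjusted p = 0.00248), and it was 6.76 without control replicate 1, 4.19 without control replicate 2, 6.26 with limma-voom and 5.41 in the fit with a replicate block. With so few control counts the size of this fold is known less well than that of the other rows. The lowest PFOA library was 10.02 times the highest control library.

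Hoxb2 (chr11:96350525-96354012, plus strand), a gene known for its part in hindbrain segments, stands nearest the head end of the listed HoxB rows and changed least. It had 50, 72 and 103 counts in PFOA replicates 1, 2 and 3, against 27, 27 and 25 counts in control replicates 1, 2 and 3. The control libraries were almost equal and the PFOA libraries were spread, with replicate 3 highest. CPM averaged 36.3 ± 10.8 in PFOA and 12.5 ± 1.03 in control (SD, n = 3 each), a log2 fold change of 1.53 ± 0.34 (SE; edgeR adjusted p = 0.00371). Of the 804 higher rows, 476 had a larger log2 fold change, so Hoxb2 stood below the middle of them. Its whole span is overlapped by the antisense gene Hoxb3os.

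In the HoxD cluster, the row of Hoxd3 and Hoxd4 (chr2:74711927-74748442, plus strand), genes that shape the first neck vertebrae, had 715, 1459 and 1554 counts in PFOA replicates 1, 2 and 3, against 85, 98 and 102 counts in control replicates 1, 2 and 3. Here the controls were even and PFOA replicate 1 was the low library, the highest PFOA library being 1.89 times the lowest in CPM. CPM averaged 598.3 ± 187.3 in PFOA and 45.0 ± 3.17 in control (SD, n = 3 each), 13.5-fold by summed and scaled counts. Its log2 fold change of 3.73 ± 0.31 (SE; edgeR adjusted p = 0.000105) had the smallest standard error of the 5 rows and lay between 3.55 and 3.94 under all alternatives run. The row's deposited length of 10651 bases is 29.2% of its span and exceeds the 6899 bases of merged GENCODE exons.

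Hoxd8 (chr2:74704615-74707933, plus strand), a gene of the middle of the cluster, had 109, 202 and 226 counts in PFOA replicates 1, 2 and 3, against 32, 18 and 24 counts in control replicates 1, 2 and 3. PFOA replicate 1 was again the lowest of its group, and control replicate 1 the highest of its own. CPM averaged 86.3 ± 24.7 in PFOA and 11.7 ± 3.52 in control (SD, n = 3 each), 7.48-fold by summed and scaled counts and a log2 fold change of 2.87 ± 0.38 (SE; edgeR adjusted p = 0.000531). Hoxd3os1 (chr2:74703248-74716130, minus strand), the antisense RNA whose span covers Hoxd8 and reaches into Hoxd3, has a row of its own. It had 21, 25 and 17 counts in PFOA replicates 1, 2 and 3, against 6, 1 and 0 counts in control replicates 1, 2 and 3, 3.14 ± 0.74 higher on the log2 scale (SE; edgeR adjusted p = 0.0049). That value was 5.02 without control replicate 1 and 2.44 without control replicate 3.

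Per length, Hoxb3 to Hoxb6 had the highest level of the 5 rows in each of the 6 libraries. In CPM per kb of deposited length, PFOA means were 158 ± 14.9 for Hoxb3 to Hoxb6, 69.8 ± 5.63 for Hoxb7, 56.2 ± 17.6 for Hoxd3 and Hoxd4, 31.5 ± 9.0 for Hoxd8 and 10.4 ± 3.1 for Hoxb2 (SD, n = 3). The level of Hoxb3 to Hoxb6 exceeded every library of the other rows, and Hoxb2 lay under every library of the others. The range of Hoxb7 overlapped with that of Hoxd3 and Hoxd4, which was the higher of these rows in PFOA replicate 2 alone. The row of Hoxd3 and Hoxd4 was above Hoxd8 in each PFOA library, at 36.0, 64.5 and 68.1 for Hoxd3 and Hoxd4 and 21.3, 34.7 and 38.4 for Hoxd8 in PFOA replicates 1, 2 and 3, although their ranges overlapped across libraries. In control the means were 10.2 ± 8.04 for Hoxb3 to Hoxb6, 4.28 ± 1.28 for Hoxd8, 4.23 ± 0.298 for Hoxd3 and Hoxd4, 3.59 ± 0.295 for Hoxb2 and 2.48 ± 3.38 for Hoxb7 (SD, n = 3), and the ranges of neighbours in this order overlapped except Hoxd3 and Hoxd4 with Hoxb2. Hoxb3 to Hoxb6 had 19.5, 5.29 and 5.86 CPM per kb in control replicates 1, 2 and 3. With merged GENCODE exons in place of the deposited length, an alternative chosen after seeing the data, the level of Hoxb3 to Hoxb6 was 745 ± 70.2 in PFOA and 48.1 ± 37.9 CPM per kb in control (SD, n = 3 each). On that scale Hoxb7 was at 111 ± 8.99 in PFOA and 3.96 ± 5.4 in control, and Hoxd3 and Hoxd4 at 86.7 ± 27.1 in PFOA and 6.53 ± 0.459 CPM per kb in control (SD, n = 3 each), while Hoxd8 and Hoxb2 kept their values. All counts of a row were kept, also those from outside the merged exons. These values are therefore upper bounds and not levels of the exons alone, above all for Hoxb3 to Hoxb6, whose deposited length exceeds its exons most.

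Part of the order of the replicates was shared between the rows. PFOA replicate 3 was the highest PFOA library in CPM for 5 of the 5 rows. Control replicate 1 was the highest control library in CPM for 4 of the 5 rows, all but that of Hoxd3 and Hoxd4. For Hoxb2 this was nearly a tie, at 13.16 against 13.07 CPM in control replicate 2, with 27 counts in each. PFOA replicate 1 was the lowest PFOA library for 4 of 5, all but Hoxb7. Control replicate 1 also had the most counts of Cnn1, calponin of smooth muscle, with 2758, 4210 and 4489 counts in PFOA replicates 1, 2 and 3 and 12148, 5275 and 7665 counts in control replicates 1, 2 and 3. Cnn1 is the only 1 of 8 smooth muscle markers with a row, at 1480 to 2090 CPM in PFOA and 2550 to 5920 CPM in control. It was lower in PFOA by a log2 fold change of -1.11 ± 0.34 (SE; edgeR adjusted p = 0.0142), the opposite direction to the 5 Hox rows. Listed too was 1 of 4 markers of enteric glia, Gfap, which was higher in PFOA (log2 fold change 1.64; edgeR adjusted p = 0.00129). Rows were also listed for 3 of 6 T and NK cell markers, summing to 55.1 to 167 CPM in PFOA and 14.5 to 29.7 CPM in control. The 3 of 5 adipocyte markers with a row summed to 67.8 to 277 CPM in PFOA and 8.16 to 25.6 CPM in control. Among them Adipoq had 54, 0 and 150 counts and Plin1 61, 0 and 128 counts in PFOA replicates 1, 2 and 3. Neither passed the filter for testing, and the sum in PFOA replicate 2 was that of Cidec alone, with 144 counts. Red blood cell markers, in 4 rows, summed to 123 to 212 CPM in PFOA and 563 to 1490 CPM in control. No marker of the fibroblast, enteric neuron, endothelium, B cell, plasma cell or myeloid lists had a row. The part of these cell types in the Hox counts was not tested. In such bulk tissue, more cells of a type and more RNA per cell cannot be told apart. Of 10 markers of colon epithelium 5 had rows, 7 in all, summing to between 167000 and 319000 CPM in PFOA and between 73300 and 124000 CPM in control. By gene, Car1, Cdx2 and Muc2 were higher, Muc2 in 3 rows that also held most of the summed CPM, and Car4 and Slc26a3 were lower.

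Deviations from the group means were alike for some rows and not for others. Over the 6 libraries, with each group's mean of log2(CPM + 0.5) taken away, Hoxb7 followed the row of Hoxb3 to Hoxb6 at r = 0.874 and Hoxd8 at 0.708, whereas Hoxb2 was at 0.248 and the row of Hoxd3 and Hoxd4 at -0.099. Outside the Hox clusters the rows most like Hoxb3 to Hoxb6 by this measure were Cd9, a tetraspanin, at 0.998, Flnc, a muscle filamin, at 0.995, Atcayos, an antisense RNA, at 0.992, and Fxyd4, a regulator of the sodium pump, and Itga5, an integrin chain, at 0.991 each. With 6 libraries and 2 group means removed such values are easily high, and 42 of 918 rows eligible reached 0.9. Flnc had 1576, 1888 and 2062 counts in PFOA replicates 1, 2 and 3 and 14646, 2726 and 3817 counts in control replicates 1, 2 and 3, so that its likeness lies in control replicate 1, and Fxyd4 had no count in PFOA. These likenesses are a description of the libraries, without a test.

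Along both chromosomes the direction of the listed rows switched once. In the HoxB cluster and 100 kb to either side there were 11 listed rows. The 8 rows towards the tail, namely Hoxb13, the last gene of the cluster, Ttll6, Gm11535, Gm27898 and 4 unnamed loci, all had fewer counts in PFOA. The 3 anterior rows all had more, with no listed row in the 75.5 kb between the 2 sets, where GENCODE places Hoxb9, Hoxb8, Gm53 and Mir196a-1. The 8 rows are not separate places. Gm27898 lies within the span of Hoxb13, and the 4 unnamed loci lie within that of Ttll6 or Hoxb13, all on the other strand. The unnamed loci with the fewest counts were not tested. In the HoxD cluster the 3 rows of Evx2, Hoxd13 and Hoxd12 were lower and the 3 rows of Hoxd3os1, Hoxd8 and of Hoxd3 and Hoxd4 higher, with 25.5 kb between them, where Hoxd11, Hoxd10 and Hoxd9 lie. Genes without a row are not analysed here and are not shown to be unchanged. Of all 2033 listed rows, 1035 were higher in PFOA by mean raw count and 998 lower.

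**Figure D2:**
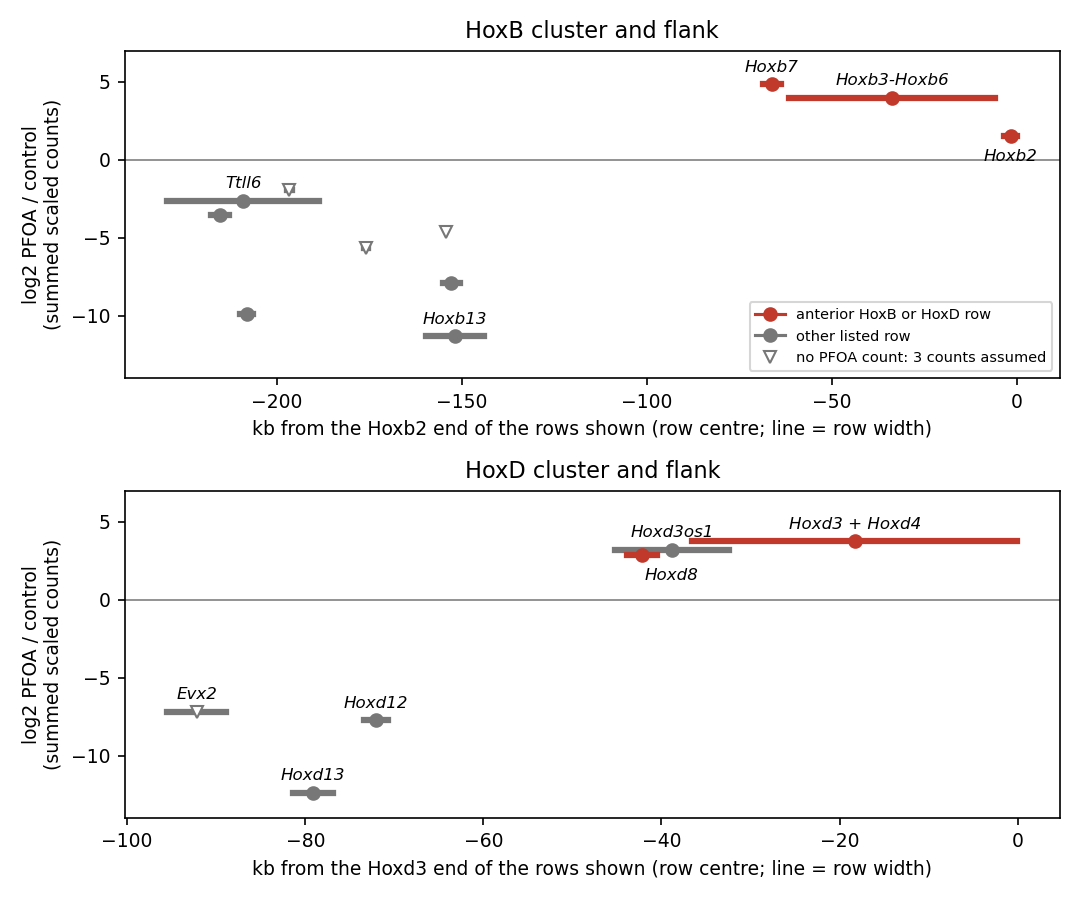
Log2 ratio of summed, TMM-scaled counts, PFOA over control (n = 3 each), of every listed row in the HoxB and HoxD clusters and 100 kb around them, against distance in kb from the head-side end; lines give row widths and open triangles rows without a PFOA count, for which 3 counts were assumed. In both clusters the anterior rows (red) lie above 0 and the rows towards the tail below it.

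A ratio within a library does not depend on the scaling between libraries. The 3 anterior rows held 100%, 99.97% and 99.99% of the counts of all listed HoxB genes in PFOA replicates 1, 2 and 3, against 18.6%, 9.88% and 8.50% in control replicates 1, 2 and 3. The anterior HoxD rows held 99.88%, 99.94% and 100% of the counts of listed HoxD genes, with Evx2, in PFOA replicates 1, 2 and 3, against 3.03%, 21.7% and 5.67% in control replicates 1, 2 and 3. Every PFOA library lay above every control library, in which Hoxb13 and Hoxd13 took most of the counts. The direction of this difference was fixed by the listing, since all rows in the total differ between the groups, the anterior ones upwards and the others downwards. Hoxb8, Hoxb9, Hoxd9, Hoxd10 and Hoxd11 have no row and do not enter the total. Group means were 99.98% ± 0.0164 in PFOA and 12.3% ± 5.48 in control for HoxB, and 99.94% ± 0.0606 in PFOA and 10.1% ± 10.1 in control for HoxD (SD, n = 3 each). Control replicate 1 had the highest control share for HoxB and the lowest for HoxD, since its Hoxd13 row had 3297 counts against 345 in control replicate 2, and without control replicate 2 the control mean for HoxD was 4.35%. Without the merged rows, which hold most of the anterior counts, the means were 99.31% in PFOA and 0.483% in control for HoxB, and 99.53% in PFOA and 2.04% in control for HoxD. An exact permutation test of 3 against 3 libraries cannot give a p under 0.1, and every listed row differs on this same contrast, so no test is given.

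**Figure D3:**
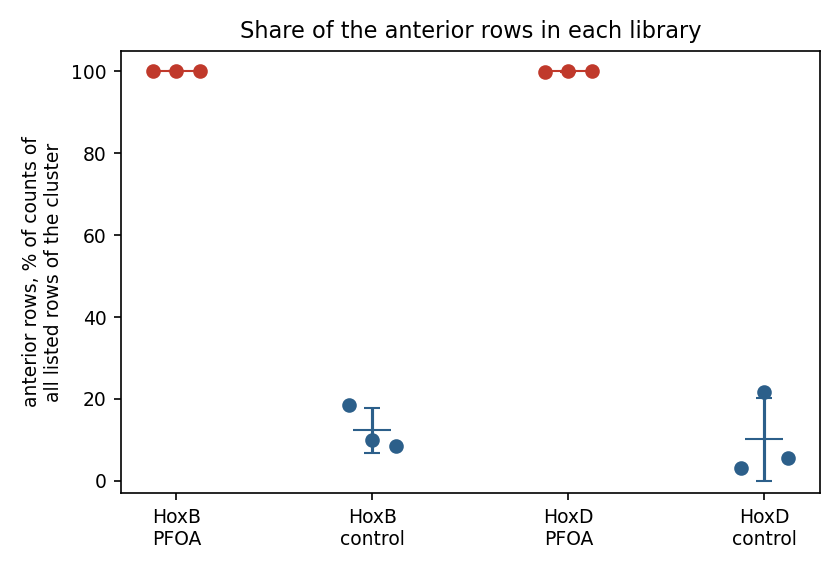
Percentage of the counts of all listed HoxB or HoxD genes that fell in the anterior rows, per library (points), with group mean and SD (bars, n = 3), PFOA in red and control in blue. PFOA libraries lie at 99.88% or more, control libraries between 3.03% and 21.7%. All rows in the total are listed ones that differ between the groups, which fixes the direction.

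Promoter sequence, from 250 bases before to 50 bases after the start site, was matched for 4 of the 9 genes, Hoxb4, Hoxd3, Hoxd4 and Hoxd8 (RefSeq, GRCm38.p6). The promoters of the paralogues Hoxb4 (chr11:96318017-96318316, plus strand) and Hoxd4 (chr2:74721728-74722027, plus strand) are shown, since they lie in the merged rows that rose together in the 2 clusters. Capitals mark matches, on either strand, to AGGTCA, the single site of nuclear receptors, to TTTATG and TTTATT, the core of sites for caudal (CDX) factors, to TATAAA and to CCAAT.
Hoxb4: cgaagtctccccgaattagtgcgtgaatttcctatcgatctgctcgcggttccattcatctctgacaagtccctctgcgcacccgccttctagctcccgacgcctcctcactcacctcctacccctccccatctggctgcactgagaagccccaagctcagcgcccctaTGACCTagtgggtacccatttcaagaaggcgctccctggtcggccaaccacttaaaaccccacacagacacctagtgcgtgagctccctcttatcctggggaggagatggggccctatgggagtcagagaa
Hoxd4: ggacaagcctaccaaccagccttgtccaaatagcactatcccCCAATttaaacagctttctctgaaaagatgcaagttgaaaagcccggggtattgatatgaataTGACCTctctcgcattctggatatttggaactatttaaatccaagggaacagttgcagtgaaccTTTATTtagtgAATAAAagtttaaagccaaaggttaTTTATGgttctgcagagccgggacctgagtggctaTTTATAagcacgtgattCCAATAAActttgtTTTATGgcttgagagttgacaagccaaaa

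AGGTCA was found once in each of the 4 promoters and in 16.3% of all 32851 promoters of the table. In the Hoxb4 promoter it was the only match, with its first base at -81 from the start site, on the minus strand. The Hoxd4 promoter held it at -145, and also held TTTATG at -45 and 22, a motif in 11.9% of all promoters. The other caudal core, TTTATT, stood there at -81, -70 and 10, and overlapped a match to CCAAT at the last of these places; 19.6% of all promoters hold this core. Hoxd4's promoter was poor in G and C, at 39.7% (percentile 9.5 of all promoters), against 58% for Hoxb4, 54% for Hoxd3 and 46.7% for Hoxd8. Exact direct repeats of AGGTCA were sought with a spacer of 5 bases, as for retinoic acid receptors, or of 1 base, as for PPAR. Neither repeat nor the joint HOX and PBX site TGATTNAT was in any of the 4 windows. They were in 0.01%, 0.04% and 3.22% of all promoters, so their absence from 4 windows says little. Other spacings and inexact repeats were not searched. A match is a stretch of letters and no measured binding site.

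Genes that act with or on Hox genes were taken from lists. None of 9 cofactor genes of the PBX, MEIS and PKNOX families and none of 23 Polycomb and Trithorax genes, which hold Hox clusters silent or active, had a row. Among regulators of gut position, Cdx2, the caudal factor that sets intestinal identity and that is also on the list of epithelial markers, had 4617, 3549 and 4066 counts in PFOA replicates 1, 2 and 3 and 619, 1313 and 868 counts in control replicates 1, 2 and 3, a log2 fold change of 2.18 ± 0.33 (SE; edgeR adjusted p = 0.000843). Isx, an intestinal homeobox gene placed on the same list, was also higher (log2 fold change 5.27 ± 0.88, SE; edgeR adjusted p = 0.00129). Whether Isx acts on gut position or on Hox genes was not tested.

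Retinoic acid, made from vitamin A, is a classical inducer of anterior Hox genes. Of 25 genes of its synthesis, transport, breakdown and receptors, 6 had a row, 3 higher and 3 lower in PFOA, with a median log2 fold change of -0.25. Aldh1a1, a retinaldehyde dehydrogenase, had 4386, 6510 and 7573 counts in PFOA replicates 1, 2 and 3 and 849, 1743 and 1621 counts in control replicates 1, 2 and 3, a log2 fold change of 2.17 ± 0.32 (SE; edgeR adjusted p = 0.000825). Lrat, which stores retinol as ester, rose by 1.10 ± 0.25 on the log2 scale (SE; edgeR adjusted p = 0.00399) and Cyp26b1, which breaks retinoic acid down, by 0.99 ± 0.35 (SE; edgeR adjusted p = 0.0249). Lower were Bco1, which cleaves beta-carotene (log2 fold change -1.48), Rbp2, the retinol carrier of enterocytes (-2.21), and a row that merges Rdh16 with other retinol dehydrogenases (-2.27). No retinoic acid receptor gene had a row.

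The direction of the 5 anterior rows held under every test, scaling, filter and left-out library that was run, with adjusted p at most 0.0249. Every listed row differs on this same contrast, so this was close to given. Over all tested rows, between 1531 of 1697 and 2031 of 2033 passed under these settings, and passing is not particular to the Hox rows. What moved was the size of the fold for Hoxb7 and for Hoxb3 to Hoxb6, as given above, and in both it was largest without control replicate 1.

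**Figure D4:**
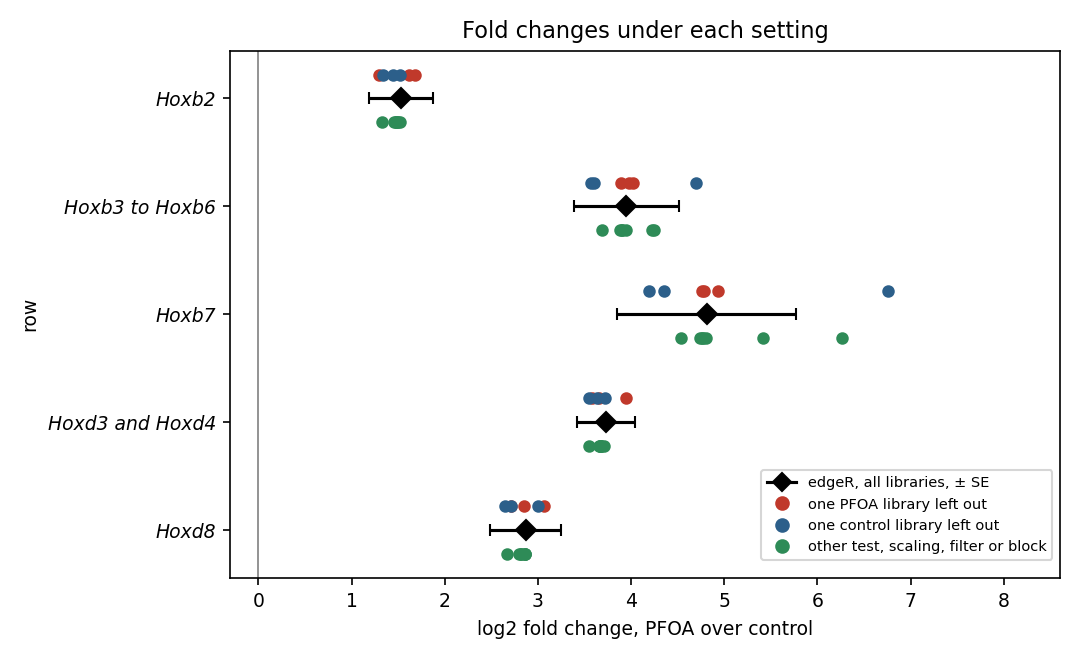
Log2 fold change, PFOA over control, of each row under edgeR with all libraries (diamond, ± SE, n = 3 per group), with 1 library left out (red for PFOA, blue for control) and with another test, scaling, filter or the replicate block (green). All points lie right of 0, from 1.29 for Hoxb2 to 6.76 for Hoxb7.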

How the data were processed

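RNA from colon tissue was sequenced in 3 PFOA and 3 control libraries; the labels' protocols name a SMARTER mRNA-Seq kit. HISAT2, HTSeq and mm10 are named in the submitters' processing notes, without versions or order. The authors deposited raw counts per gene row, used as deposited; the row length is a deposited column too. For the assembler, strand use, reads that map to several places and the choice of rows, the method is not given in the sources used here.

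Columns were matched to samples by the sample descriptions, and 0 other columns of single libraries were used. Counts were tested with edgeR 4.0.16 in R 4.3.3 (filterByExpr, TMM, glmQLFit, glmQLFTest, two-sided, Benjamini-Hochberg over 1608 tested of 2033 rows, threshold 0.05, no covariates). A standard error is the absolute log2 fold change divided by the square root of F. On simulated counts (1546 rows, 200 drawn as changed before filtering), 21% of 100 rows with a 2-fold change and 91.3% of 92 with a 4-fold change passed, beside 2 rows without one. The simulation gave all rows 1 common dispersion, 0.124, and left most rows unchanged. The listed rows all differ between the groups, so these shares do not describe the test as applied to them. No 2 libraries of a group agreed within sampling noise (smallest chi-square per degree of freedom 22.9). Alternatives were DESeq2 1.42.0, limma-voom (limma 3.58.1), other scalings, no filter, the replicate block and each library left out. The depth of sequencing is unknown, and counting error is large for rows with few counts, such as Hoxb7 in control.

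The members and lists were chosen with earlier results of these data known. Every member row was named, beside other Hox cluster rows, listed genes with rows, and the 5 rows (mean of at least 10 CPM) most alike within groups. Sequences came from GENCODE M21 and RefSeq GRCm38.p6, the mm10 assembly. Some listed genes and sequences are not reported here.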

Additional observations from a re-analysis of the deposited data

How the results depend on the processing

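All 65 combinations of an anterior row and an alternative kept direction and call, with log2 fold changes from 1.29 to 1.68 for Hoxb2, 3.57 to 4.70 for Hoxb3 to Hoxb6, 4.19 to 6.76 for Hoxb7, 3.55 to 3.94 for Hoxd3 and Hoxd4 and 2.65 to 3.06 for Hoxd8. Of 169 such combinations over 13 other tested Hox cluster rows, 168 did, and Hotairm1 lost its edgeR call without PFOA replicate 2 (adjusted p = 0.0513). Rows called ranged from 1531 of 1697 without control replicate 3 to 2031 of 2033 without a filter. Listed totals without TMM shifted the median of the same 1608 rows by -0.22 (log2). Deviations of same-numbered libraries correlated at 0.114, -0.0306 and 0.102, and those of differently numbered libraries at between -0.149 and 0.117. With 3 libraries per group these values cannot settle whether the replicate numbers pair the libraries. With the replicate block, 1579 rows and all 5 anterior rows passed. Leaving out the merged rows, which also hold Mir10a or Gm28230, put the anterior share at 99.31% in PFOA and 0.483% in control for HoxB and at 99.53% in PFOA and 2.04% in control for HoxD. Dividing by row length, chosen after seeing the data, gave 99.96% in PFOA and 5.63% in control for HoxB and 99.85% in PFOA and 5.76% in control for HoxD. The cause of these moves was not tested beyond the removal of counts that defines them. Low control counts limit the fold of Hoxb7.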

Other observations

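All 6 listed HoxC rows had more counts in PFOA, with at most 51 counts in any library, and only Hoxc5 and Hoxc6 had enough counts to be tested. Over all 2033 rows, 1035 were higher in PFOA by mean raw count and 998 lower, and no listed row is unchanged. Cluster genes without a row do not enter such counts. Hoxc9, Hoxc10 and Hoxc11, of high paralogue groups, were among the untested rows with more counts in PFOA, whereas Hoxb13, Hoxd12 and Hoxd13 had fewer. Hoxc6, a paralogue of Hoxb6, had 42, 33 and 51 counts in PFOA replicates 1, 2 and 3 and 5, 0 and 0 counts in control replicates 1, 2 and 3, a log2 fold change of 4.60 (edgeR adjusted p = 0.00169), or 8.37 without control replicate 1 and 3.90 without control replicate 3. Hoxc5, a paralogue of Hoxb5, had 12, 13 and 23 counts in PFOA and 1, 0 and 3 counts in control, a log2 fold change of 3.51 (edgeR adjusted p = 0.00217), or 4.58 without control replicate 3. Hoxc8, a paralogue of Hoxd8, had 7, 11 and 7 counts in PFOA and 0, 0 and 2 in control and was too low to be tested. The 7 listed HoxA rows all had fewer counts in PFOA, and among them Hotairm1, the non-coding RNA at the head end of that cluster, had 8, 13 and 18 counts in PFOA replicates 1, 2 and 3 and 45, 22 and 32 counts in control replicates 1, 2 and 3 (log2 fold change -1.31; edgeR adjusted p = 0.0154). No HoxA coding gene of paralogue groups 2 to 8 had a row.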
